A study of Mus musculus with 9 samples.

Results

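Inflammasome and pyroptosis genes were followed in bulk RNA-Seq of the mouse iris after corneal alkali injury. The 10 genes, Nlrp3, Aim2, Nlrc4, Naip2, Naip5, Mefv, Pycard, Casp1, Casp4 and Gsdmd, were chosen by symbol from the 18349 genes listed, and all 10 passed the filter on low counts, which kept 15010 genes. Iris tissues came from 3 groups of mice with 3 libraries each, and each library pooled 3 irises of 1 genotype. Sham VEGFR3fl/fl mice carry a floxed VEGFR3 (Flt4) gene without Cre and had PBS on the cornea. Injured VEGFR3fl/fl mice have the same genotype and were injured at an age of 6 weeks with 60 seconds of contact between the cornea and 0.5 μL sodium hydroxide (1 M). Injured VEGFR3iLECko mice received the same injury and also carry Prox1-CreERT2, a tamoxifen-inducible Cre driven by Prox1, which is active in lymphatic endothelium and in some other Prox1-expressing cells such as lens fibers. The labels give tamoxifen to all groups, at 80 mg/kg on days 13 to 17, and irises were taken at an age of 10 weeks from mice that all had a C57BL/6J background. The groups ask what the injury does to these genes and whether they differ once VEGFR3 is deleted from lymphatic endothelium.

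Inflammasomes are protein platforms that form in the cytosol, chiefly of macrophages, monocytes, dendritic cells and neutrophils, when a sensor meets a microbial product or a sign of damage. Most sensors recruit the adaptor ASC, encoded by Pycard, which brings in caspase-1. Caspase-1 cleaves the precursors of IL-1β and IL-18 and the pore protein gasdermin D, while mouse caspase-11, encoded by Casp4, binds LPS directly and cleaves gasdermin D without a sensor. RNA levels of these genes set how much of the machinery can be made and do not measure whether it was assembled or cleaved.

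Libraries held 16617187 to 18306359 estimated counts, with TMM factors of 0.9 to 1.09. Levels are given as CPM, the counts divided by the library size after TMM scaling, and groups as mean ± SD with n = 3. The deletion could not be seen in the targeted gene: Flt4 was at 20.1 ± 3.11 CPM in injured VEGFR3fl/fl and 25.4 ± 3.88 CPM in the libraries labelled injured VEGFR3iLECko (log2 fold change 0.34, SE 0.15, adjusted p = 0.2), and Prox1 was at 2.68 ± 1.98 and 1.09 ± 0.141 CPM (log2 fold change -1.29, SE 0.66, adjusted p = 0.256). By library, Prox1 was at 4.49, 2.99 and 0.574 CPM in injured VEGFR3fl/fl. Its replicate 3 was thus below all injured VEGFR3iLECko libraries (0.935, 1.13 and 1.21 CPM). In whole iris, where lymphatic endothelium is a small share of the cells, and with gene-level counts that do not single out the deleted exons, these levels are no direct check of the genotype. The summed level of 4 Y-linked genes was 51.1 to 167 CPM in the sham libraries, 151 and 136 CPM in replicates 1 and 2 of injured VEGFR3fl/fl, and 0.736 to 1.11 CPM in replicate 3 of that group and in all 3 injured VEGFR3iLECko libraries. The Y-linked level thus moved with the comparison of the injured groups, and values that bear on its part are given beside that comparison.

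Injury upregulated the whole set. In injured versus Sham VEGFR3fl/fl iris, all 10 members passed an adjusted p of 0.05 with more than a 1.5-fold increase in edgeR's quasi-likelihood test, and in all 10 every injured library lay above every sham library. Across the 15010 genes tested, 22.1% were called up and 17.5% down, while 33.9% had every injured library above every sham library and 32.4% every one below. With scaling to library size alone the split was 2783 up and 3523 down, against 3323 and 2630 with TMM, and all 10 members were still called up. No member had a log2 fold change below 0, where 49.3% of all genes did. The median log2 fold change of the members was 3.83, against 0.01 for all genes. Sensors and caspases rose most, with log2 fold changes between 2.99 and 7.45, and the adaptor and the pore gene, which already had the highest sham levels per transcript length, rose least. Whether more cells carried these transcripts or each cell held more of them cannot be told apart in bulk tissue.

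**Figure D1:**
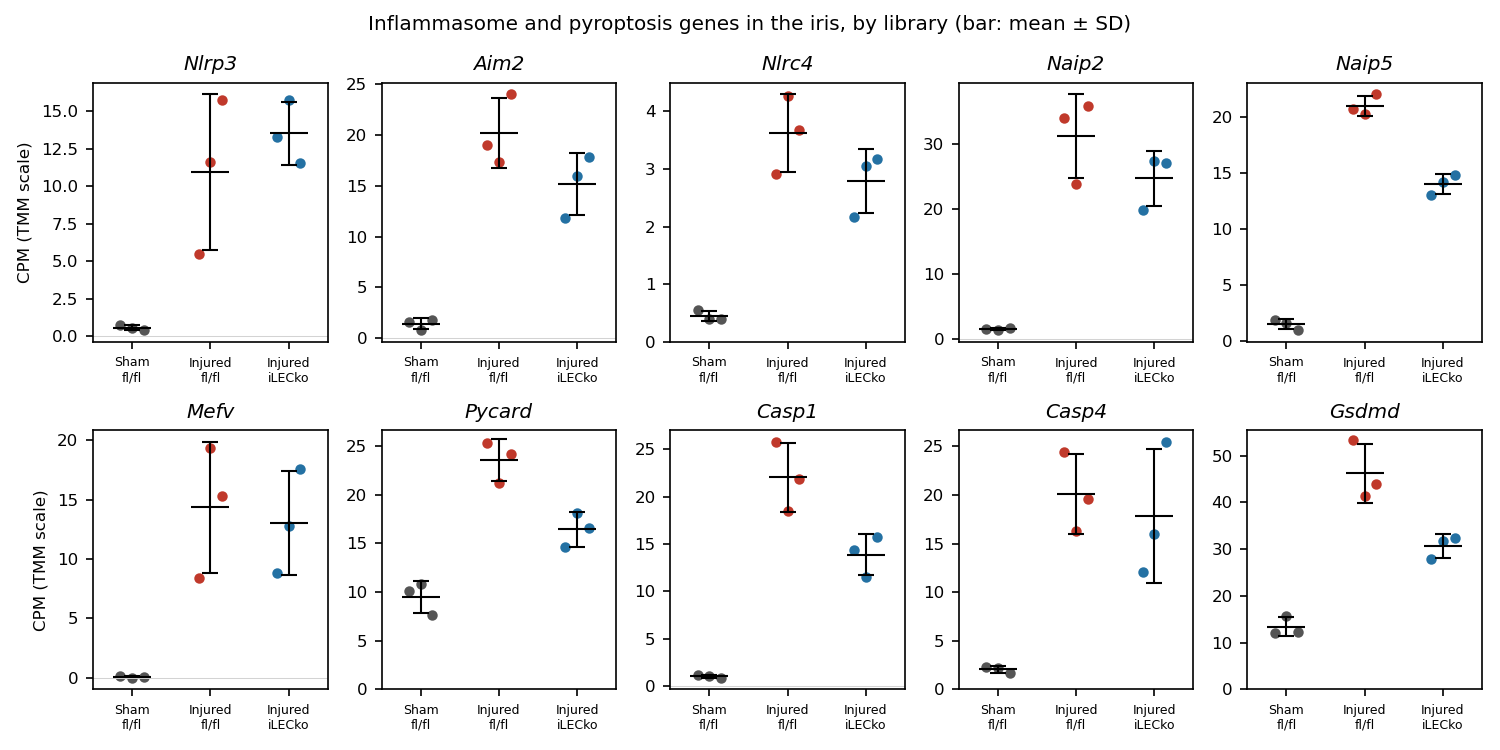
Level of each of the 10 genes in CPM on the TMM scale (vertical axis, separate for each gene) in the 3 libraries of Sham VEGFR3fl/fl (gray), injured VEGFR3fl/fl (red) and injured VEGFR3iLECko (blue); black bars show mean ± SD, n = 3. In every panel the sham points lie below all points of both injured groups, and in the Naip5, Pycard, Casp1 and Gsdmd panels the blue points also lie below all red points.

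Nlrp3 encodes the sensor of ion flux, membrane damage and crystals, and its transcription is itself switched on during priming of myeloid cells. Sham libraries held 0.720, 0.565 and 0.394 CPM of Nlrp3, injured VEGFR3fl/fl libraries 5.46, 11.6 and 15.8 CPM, and injured VEGFR3iLECko libraries 13.3, 15.7 and 11.6 CPM. The sham libraries were far below the rest, and the injured VEGFR3fl/fl group was spread so widely, 2.89-fold from lowest to highest, that its range enclosed all of the injured VEGFR3iLECko values. The increase over sham in injured VEGFR3fl/fl was 19.3-fold (log2 fold change 4.27, SE 0.43, adjusted p = 3e-05). The gene lies on chromosome 11 at 59541569 to 59566955 (GRCm38.p6). One of its 2 promoter windows, 250 bases before to 50 after the RefSeq gene start, is shown because Nlrp3 is one of 3 members with an NF-kB motif in a promoter window, and priming is known to act through NF-kB. The other window of Nlrp3, around a different start, holds no NF-kB match. In the window printed, capitals mark the NF-kB motif and a match of the ETS core AGGAAG on the other strand, where it reads CTTCCT (chr11:59541319-59541618, GRCm38.p6, + strand).
Nlrp3 promoter: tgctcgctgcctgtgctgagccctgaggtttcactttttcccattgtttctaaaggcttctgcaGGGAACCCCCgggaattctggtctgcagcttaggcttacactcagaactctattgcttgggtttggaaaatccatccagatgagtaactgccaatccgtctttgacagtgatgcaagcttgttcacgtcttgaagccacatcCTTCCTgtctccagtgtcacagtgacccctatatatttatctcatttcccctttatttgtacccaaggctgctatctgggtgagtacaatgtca

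Aim2, whose product binds double-stranded DNA in the cytosol, was at 1.61, 0.791 and 1.80 CPM in sham, 19.1, 17.4 and 24.0 CPM in injured VEGFR3fl/fl and 11.8, 16 and 17.8 CPM in injured VEGFR3iLECko. Sham was lowest throughout, and the injured groups overlapped only through 1 library of each. Injury raised Aim2 14.3-fold (log2 fold change 3.84, SE 0.29, adjusted p = 5.48e-06). Its RefSeq span on chromosome 1, from 173349547 to 173466040, overlaps Cadm3 by 18593 bases, so reads without strand from that stretch could belong to either gene.

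Mefv, which encodes pyrin, the sensor of bacterial inactivation of RhoA, was almost silent in sham iris. It had 3, 0 and 1 counts in the sham libraries, 138, 330 and 267 counts in injured VEGFR3fl/fl and 151, 225 and 305 counts in injured VEGFR3iLECko. No other member came so close to 0 without injury, and both injured groups spanned a similar range. The summed counts, scaled for library size, were 193 times higher after injury (95% exact counting interval 75 to 710, which covers counting error only), and the fit gave an adjusted p of 1.08e-05. Mefv lies on chromosome 16 at 3706974 to 3718211.

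The NAIP proteins bind bacterial flagellin and secretion-system needle or rod proteins and then engage NLRC4, which nucleates the platform. Nlrc4 (chromosome 17, 74426255 to 74459144) was, also per transcript length, the scarcest member after injury, at 0.554, 0.395 and 0.394 CPM in sham, 2.91, 4.27 and 3.67 CPM in injured VEGFR3fl/fl, and 2.16, 3.06 and 3.17 CPM in injured VEGFR3iLECko. The rise over sham was 7.97-fold (log2 fold change 2.99, SE 0.30, adjusted p = 2.78e-05). The ligand-binding partners rose more, and they differed in how tight the groups were.

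Naip2, which binds the inner rod protein, was at 1.66, 1.41 and 1.69 CPM in sham, 34.0, 23.9 and 35.8 CPM in injured VEGFR3fl/fl and 19.9, 27.4 and 27.1 CPM in injured VEGFR3iLECko. Naip5, which binds flagellin, was at 1.83, 1.64 and 0.957 CPM in sham, 20.7, 20.3 and 22.1 CPM in injured VEGFR3fl/fl, and 13.0, 14.2 and 14.8 CPM in injured VEGFR3iLECko. For Naip2 the injured groups overlapped, whereas for Naip5 they did not, and Naip5 had the smallest spread of any member within both injured groups (CV 4.34% and 6.42%). Injury raised Naip2 19.6-fold (log2 fold change 4.29, SE 0.22, adjusted p = 5.25e-07) and Naip5 14.2-fold (log2 fold change 3.83, SE 0.20, adjusted p = 6.44e-07). The Naip genes are closely related copies in a cluster on chromosome 13, with Naip2 at 100144063 to 100202122 and Naip5 at 100211735 to 100250930. Of the 50-base windows in their coding transcripts, the length of the reads, 19.1% in Naip2 and 36.9% in Naip5 also occur in another Naip gene, so the split of counts among them is uncertain. Aligned with gaps, their promoter windows had 212 identical bases over 345 aligned columns, with no comparison to unrelated windows made. Both windows, each around a transcript start in RefSeq, are printed to show the stretch they share, with matches of the ETS core in capitals, and in Naip5 also an NF-kB match (Naip2, chr13:100202073-100202372; Naip5, chr13:100247287-100247586; GRCm38.p6, - strand).
Naip2 promoter: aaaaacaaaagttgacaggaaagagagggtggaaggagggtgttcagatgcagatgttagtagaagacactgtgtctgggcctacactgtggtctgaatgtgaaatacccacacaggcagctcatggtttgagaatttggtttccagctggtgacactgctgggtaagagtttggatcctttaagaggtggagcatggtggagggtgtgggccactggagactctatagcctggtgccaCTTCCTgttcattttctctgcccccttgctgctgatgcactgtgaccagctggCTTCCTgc
Naip5 promoter: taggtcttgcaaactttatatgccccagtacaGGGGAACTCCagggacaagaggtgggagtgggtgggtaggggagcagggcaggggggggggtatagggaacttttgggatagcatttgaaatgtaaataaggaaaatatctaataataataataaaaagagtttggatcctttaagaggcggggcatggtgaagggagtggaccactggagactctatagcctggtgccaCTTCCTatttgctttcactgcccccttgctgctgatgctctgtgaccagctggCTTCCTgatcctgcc

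Pycard, the adaptor, was well above the sensors without injury. Sham libraries had 10.1, 10.8 and 7.66 CPM, injured VEGFR3fl/fl 25.4, 21.2 and 24.2 CPM, and injured VEGFR3iLECko 14.6, 18.1 and 16.6 CPM. The 3 groups formed separate steps with no overlap. The rise with injury, 2.48-fold (log2 fold change 1.31, SE 0.15, adjusted p = 6.1e-05), was the smallest of the set. Pycard lies on chromosome 7 at 127991373 to 127993867, and 11.7% of the 50-base windows of its coding transcripts are shared with Mvp or Gm45205.

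Casp1 encodes the inflammatory caspase common to these platforms. It was at 1.22, 1.07 and 0.901 CPM in sham, 25.8, 18.4 and 21.9 CPM in injured VEGFR3fl/fl, and 14.4, 11.5 and 15.8 CPM in injured VEGFR3iLECko. As with Pycard, the groups stood apart in 3 steps. Injury raised Casp1 20.6-fold (log2 fold change 4.36, SE 0.21, adjusted p = 3.65e-07), the largest increase among members with more than 4 counts over the sham libraries.

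Casp4, the LPS-binding caspase, was at 2.33, 2.2 and 1.69 CPM in sham, 24.4, 16.3 and 19.6 CPM in injured VEGFR3fl/fl and 12.0, 16 and 25.5 CPM in injured VEGFR3iLECko. Here the injured VEGFR3iLECko libraries were spread 2.12-fold, and their range enclosed all of the injured VEGFR3fl/fl values. Injury raised Casp4 9.66-fold (log2 fold change 3.27, SE 0.31, adjusted p = 2.01e-05). Casp1 (5298517 to 5307281) and Casp4 (5308849 to 5336791) are neighbors on chromosome 9. Between the injured groups the libraries overlapped for Casp4 and not for Casp1, and whether the genes differ in their change was not tested. The Casp4 window is printed because it holds the most NF-kB matches of the members, in capitals, some of them overlapping or read on both strands (chr9:5308599-5308898, GRCm38.p6, + strand).
Casp4 promoter: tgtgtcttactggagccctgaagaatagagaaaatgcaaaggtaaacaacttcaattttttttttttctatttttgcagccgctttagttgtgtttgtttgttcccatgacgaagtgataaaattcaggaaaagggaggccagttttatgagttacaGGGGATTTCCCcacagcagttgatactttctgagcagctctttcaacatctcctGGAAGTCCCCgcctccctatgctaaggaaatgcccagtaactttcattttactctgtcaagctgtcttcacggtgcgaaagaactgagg

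Gsdmd, the pore gene on chromosome 15 (75862144 to 75867408), was at 12.1, 15.7 and 12.3 CPM in sham, 53.4, 41.4 and 43.9 CPM in injured VEGFR3fl/fl and 27.9, 31.7 and 32.5 CPM in injured VEGFR3iLECko. All 3 groups were again separate. Injury raised it 3.45-fold (log2 fold change 1.79, SE 0.14, adjusted p = 5.74e-06).

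RefSeq promoter windows were available for 9 of the 10 members, as 11 windows. The ETS core AGGAAG, read on both strands and bound by factors such as PU.1 of myeloid cells, occurred in 8 of the 9 genes, and in 35.4% of all 32851 windows of the same length. The NF-kB motif occurred in Casp4, Naip5 and Nlrp3, and in 8.46% of all windows. The interferon elements ISRE (3.44% of windows) and GAS (8.3%) were matched in 0 members. These motifs were chosen after the windows had been seen, and both strands were searched for each, so a match or its absence is a description of letters only.

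Scaled by transcript length to approximate TPM, Gsdmd was the most abundant member in all 3 groups, at 19.5 ± 2.1 in sham, 55.2 ± 3.24 in injured VEGFR3fl/fl and 41.1 ± 4.38 in injured VEGFR3iLECko. In sham iris it was followed by Pycard (6.54 ± 1.06), Casp4 (3.78 ± 0.653) and Casp1 (1.86 ± 0.319), each step without overlap between libraries. Below these came Aim2, Naip2, Naip5, Nlrp3 and Nlrc4, from 1.3 down to 0.249, where each neighbor overlapped the next, and then Mefv at 0.0646. After injury the order changed. In injured VEGFR3fl/fl, Casp1 (31.5 ± 3.33) and Casp4 (29.9 ± 4.01) overlapped each other next in order, and both exceeded Aim2 (15.3 ± 3.31). Aim2, Naip2, Pycard, Mefv, Naip5 and Nlrp3, from 15.3 down to 6, could not be separated from their neighbors, and Nlrc4 stayed lowest at 1.66 ± 0.42. In injured VEGFR3iLECko, Casp4 (29.9 ± 11.8) was spread widely enough to overlap Gsdmd above it and Casp1 (22.2 ± 3.13) below it. The value of Pycard is uncertain, because its longest coding transcript in GENCODE M21 (3800 bases) exceeds its RefSeq span (2495 bases).

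Between the injured groups the members differed much less. In injured VEGFR3iLECko versus injured VEGFR3fl/fl, 0 of the 10 were called up and 0 down in edgeR's quasi-likelihood test, where 0.573% of all genes were called up and 0.466% down, 3674 genes having an unadjusted p under 0.05. Of the members, 9 had a lower mean in injured VEGFR3iLECko, with a median log2 fold change of -0.39, beside -0.01 over all genes, of which 51.5% were below 0. An unadjusted p under 0.05 was reached by 4 members, Gsdmd, Casp1, Pycard and Naip5, and these same 4 had every injured VEGFR3iLECko library below every injured VEGFR3fl/fl library, as did 14.3% of all genes (every library higher in 12.4%). They are the pore gene, the caspase and the adaptor common to the platforms, and 1 sensor. They were also the 4 members with the smallest SE, 0.130 to 0.167, with Naip2 next at 0.172. Whether the change differs by role was not tested.

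Gsdmd was at 46.2 ± 6.33 CPM in injured VEGFR3fl/fl and 30.7 ± 2.47 CPM in injured VEGFR3iLECko, a ratio of 0.664 (log2 fold change -0.59, SE 0.13, 95% interval -0.89 to -0.30, adjusted p = 0.0591). Casp1 was at 22.0 ± 3.68 and 13.9 ± 2.18 CPM, a ratio of 0.63 (log2 fold change -0.67, SE 0.17, 95% interval -1.04 to -0.29, adjusted p = 0.0699). Both missed the threshold in edgeR's quasi-likelihood test, and both passed it in DESeq2's Wald test on the same 9 libraries, with adjusted p = 0.00294 for Gsdmd and 0.0168 for Casp1. In edgeR's test Pycard (ratio 0.697, log2 fold change -0.52, 95% interval -0.84 to -0.20, adjusted p = 0.0837) and Naip5 (ratio 0.667, log2 fold change -0.58, 95% interval -0.96 to -0.21, adjusted p = 0.0916) missed the p threshold too. DESeq2's Wald test gave them an adjusted p of 0.024 and 0.00358, under the p threshold. They were still not called there, since their changes in DESeq2 did not exceed 1.5-fold.

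The intervals of the other 6 members included 0. Nlrp3 was the single member with a higher mean in injured VEGFR3iLECko, with a log2 fold change of 0.30 (95% interval -0.45 to 1.05, adjusted p = 0.594), which turned to -0.01 without injured VEGFR3fl/fl replicate 1, the lowest injured library for this gene. Casp4 (log2 fold change -0.17, 95% interval -0.77 to 0.42) and Mefv (-0.14, 95% interval -0.96 to 0.69) changed sign with 1 library left out as well. Aim2 (-0.41), Nlrc4 (-0.37) and Naip2 (-0.33) were lower in all runs with a library left out. As a ratio, the interval of Nlrp3 ran from 0.735 to 2.07 and that of Mefv from 0.513 to 1.61, so changes of more than 1.5-fold were not excluded by them. The lower ends for Aim2 (0.518), Nlrc4 (0.519), Naip2 (0.606) and Casp4 (0.588) did not exclude a decrease of more than 1.5-fold either.

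**Figure D2:**
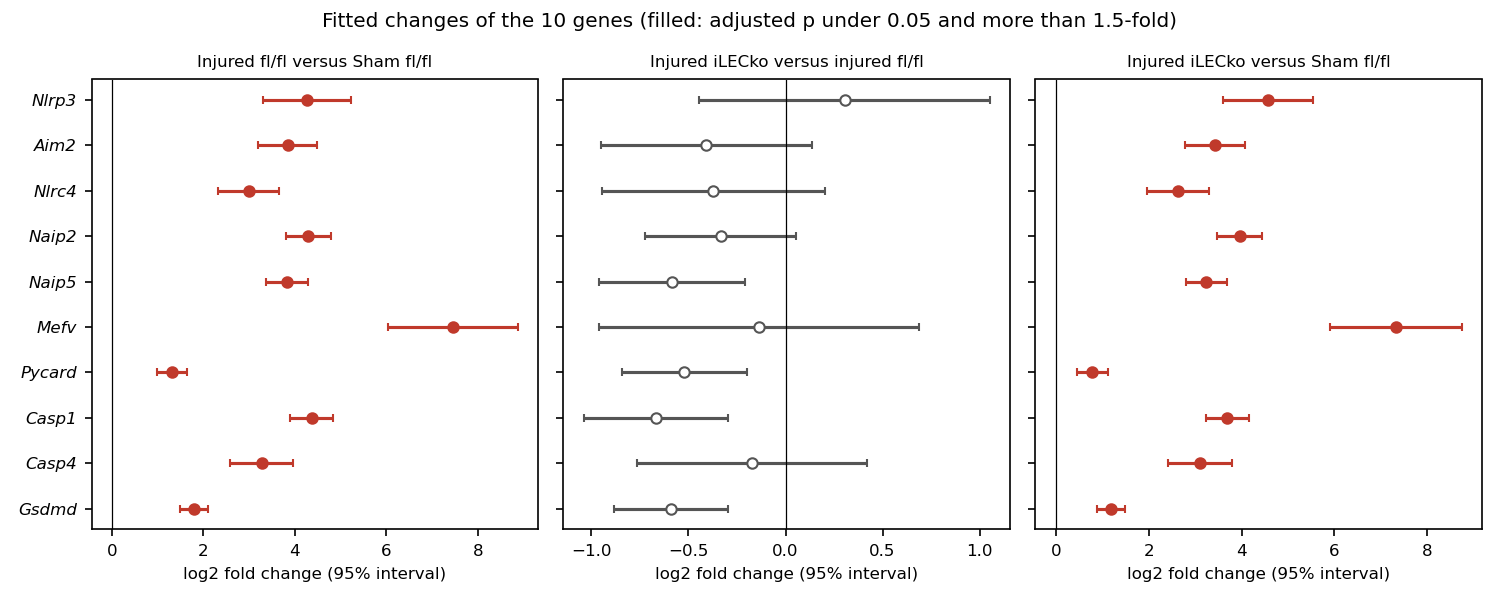
Fitted log2 fold change of each member (horizontal axis, 95% interval as bar) in injured versus Sham VEGFR3fl/fl (left), injured VEGFR3iLECko versus injured VEGFR3fl/fl (middle) and injured VEGFR3iLECko versus Sham VEGFR3fl/fl (right), with filled points for genes called by edgeR. The left and right panels have 10 of 10 filled points above 0, while the middle panel, drawn on a narrower axis, has none filled and 9 of 10 points below 0.

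Among the 4 injured libraries with a low Y-linked level, 1 is injured VEGFR3fl/fl, so no test could be made within them. That library, replicate 3, was above all 3 injured VEGFR3iLECko libraries for 8 members and within their range for Mefv and Casp4. For Nlrp3 the margin was only 15.791 against 15.745 CPM. The share of all genes placed in this way was not counted, so the 8 are a description of 1 library. For Gsdmd it had 43.9 CPM against 27.9 to 32.5 CPM, and for Casp1 21.9 CPM against 11.5 to 15.8 CPM. With the Y-linked level as a covariate in edgeR's fit, Gsdmd had a log2 fold change of -0.53 and Casp1 of -0.68, with an adjusted p of 0.452 for both. Without it the values were -0.59 and -0.67. As only 1 injured VEGFR3fl/fl library had a low level, that fit hardly separates the level from the group, and the part of the level was not tested. Nlrp3 had a log2 fold change of -0.25 in that fit, which called 0 genes up and 2 down among all 15010.

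Against sham, the injured VEGFR3iLECko iris also had all 10 members called up, where 19.7% of all genes were called up and 15% down. In all 10 every library was higher, as in 33.3% of all genes (every library lower in 33.2%, log2 fold change below 0 in 50.6%). This comparison shares its libraries with the other 2, so it is no separate evidence. Its increases were 23.8-fold for Nlrp3, 15.5-fold for Naip2, 13-fold for Casp1, 10.8-fold for Aim2, 9.46-fold for Naip5, 8.58-fold for Casp4, 6.16-fold for Nlrc4, 2.29-fold for Gsdmd and 1.73-fold for Pycard. For Mefv the ratio of summed counts was 175 (95% exact counting interval 67.9 to 643). Thus Pycard and Gsdmd stayed the least changed, and Pycard was the 1 member that lost its call with the Y-linked covariate (log2 fold change 0.67, adjusted p = 0.0726).

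Markers of leukocytes rose with the members after injury, but between the injured groups they did not all move the same way. All 10 macrophage markers were called up by injury, as were 22.1% of all genes, and none was at 0. Their summed level was 521.3 to 540.9 CPM in sham, 12740 to 21180 CPM in injured VEGFR3fl/fl and 8167 to 10140 CPM in injured VEGFR3iLECko. Between the injured groups 5 of the 10 were called down and 0 up, where 0.466% of all genes were called down and 0.573% up. Neutrophil markers had 4 of 6 tested genes called up by injury, and their sum was 0.6647 to 1.633 CPM in sham, 91.94 to 226 CPM in injured VEGFR3fl/fl and 195.9 to 943.8 CPM in injured VEGFR3iLECko. Between the injured groups all 6 of these neutrophil genes had a higher mean and 0 were called. Monocyte markers summed to 115.3 to 321.2 CPM and 138 to 207.8 CPM in the injured groups. In the same groups dendritic cell markers summed to 180 to 280.7 CPM and 108.1 to 211.4 CPM, mostly Itgax (means of 217 and 148 CPM). T cell markers were there at 35.01 to 52.54 CPM and 19.69 to 38.85 CPM, and B cell markers at 4.307 to 5.462 CPM and 1.612 to 3.797 CPM. Cd4, with means of 35.0 and 25.4 CPM, made up most of the T cell sum and overlapped between the groups, as did Cd8a. Cd3e, Cd3d and Cd3g (log2 fold changes -1.697, -0.905 and -1.379) were each lower without overlap in injured VEGFR3iLECko, as were 14.3% of all genes. None of these T cell genes was called. The general leukocyte marker Ptprc was at 124 ± 20.9 and 121 ± 30.9 CPM in the injured groups, with a log2 fold change of -0.03.

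Each member was therefore also set against the summed macrophage markers of its own library. Per 1000 CPM of these markers, Gsdmd was at 23.3, 29.0 and 23.1 CPM in sham, and at 2.52, 3.25 and 2.79 CPM in injured VEGFR3fl/fl. Pycard went from 19.3, 19.9 and 14.3 CPM to 1.20, 1.66 and 1.54 CPM. Both genes were thus lower without overlap relative to macrophage markers in the injured iris than in sham, although their own levels had risen. In all, 7 members were lower without overlap after injury on this scale, Mefv was higher, and Nlrp3 and Aim2 overlapped. The marker sum itself rose from a mean of 531.9 CPM in sham to 16550 CPM in injured VEGFR3fl/fl. Any gene that rose less than this sum is lower here. No share over all genes was counted on this scale or with the other denominators below, so these counts do not set the members apart. With 3 against 3 libraries, an exact permutation test cannot go below a two-sided p of 0.1, the value of each of those 7.

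Most of these directions turned with the choice of markers. Lyz2 alone made up 26.2% to 26.9% of the marker sum in sham and 71.5% to 83.2% in injured VEGFR3fl/fl. Without Lyz2 and the 3 C1q genes, 7 members were higher per macrophage marker after injury, 1 overlapped, and Pycard and Gsdmd alone stayed lower without overlap. They were also lower per CPM of Ptprc, as was Nlrc4. Between the injured groups, 9 of 10 members overlapped per 1000 CPM of macrophage markers. Gsdmd, for example, was at 2.85 ± 0.367 and 3.29 ± 0.625 CPM, and Casp1 at 1.35 ± 0.12 and 1.5 ± 0.399 CPM. Nlrp3 was the exception, at 0.258, 0.910 and 1.00 CPM in injured VEGFR3fl/fl and 1.31, 1.57 and 1.42 CPM in injured VEGFR3iLECko (exact permutation p = 0.1, the smallest possible). It kept this order without Lyz2 and C1q but overlapped per CPM of Ptprc, where Aim2, Naip5, Pycard and Gsdmd were lower without overlap instead. The part of cell numbers in any of these differences was not tested.

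**Figure D3:**
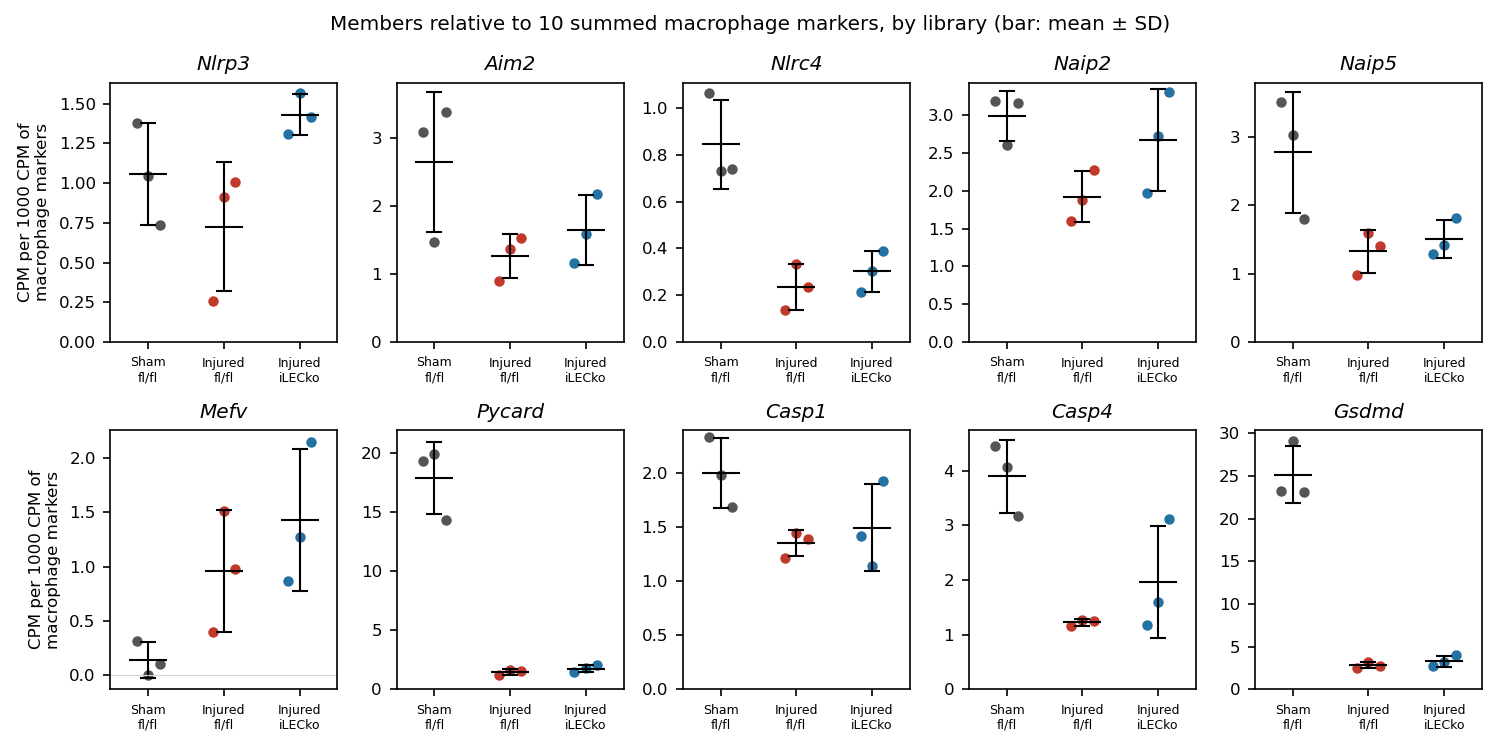
Level of each member per 1000 CPM of 10 summed macrophage markers of the same library (vertical axis, separate for each gene) in Sham VEGFR3fl/fl (gray), injured VEGFR3fl/fl (red) and injured VEGFR3iLECko (blue), with mean ± SD, n = 3. Pycard and Gsdmd drop steeply from sham to both injured groups, Mefv rises, and for Nlrp3 all 3 blue points lie above the red ones.

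The wider pathway was described with 74 further genes in 9 lists, of which 71 were listed and 65 tested. Of the 65, 39 were called up by injury and 0 down in edgeR's test (22.1% of all genes up), while 4 were lower at an adjusted p under 0.05 without the fold threshold. The median log2 fold change of the 65 was 0.99. Between the injured groups 1 was called up and 1 down.

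Other sensors behaved much like the members, with 6 of 7 tested called up by injury. They included Nlrp1b, a sensor of proteases (log2 fold change 4.31, SE 0.19, adjusted p = 2.41e-07), and Ifi204, a DNA-binding relative of Aim2 (3.79, SE 0.20, adjusted p = 6.26e-07). Nlrp10 had 1, 1 and 2 counts in sham, and its summed counts were 10.2 times higher after injury (95% exact counting interval 3.69 to 39.4). Nlrp6 stayed at 0 to 5 counts in all libraries and was not tested. None of the list was called between the injured groups, where its median log2 fold change was -0.45. There, 4 of the 7 tested were lower without overlap, as were 14.3% of all genes.

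Of the activators and licensing factors of NLRP3 and pyrin, 5 of 12 were called up by injury and 0 down. Pkn2, a kinase that phosphorylates pyrin, passed the p threshold but not the fold, with a log2 fold change of -0.48 (SE 0.06, adjusted p = 0.000163) and every injured library below every sham library. The largest increases were those of Pstpip1, a pyrin-binding adaptor (log2 fold change 4.84, SE 0.17, adjusted p = 7.59e-08), and of the kinase Syk (4.49, SE 0.10, adjusted p = 1.79e-08). In contrast, Nek7, the obligate partner of NLRP3, was at a log2 fold change of -0.09 (adjusted p = 0.293) and so did not rise with it. Pkn2 and Nek7 were named after their values were seen.

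In the list for LPS sensing and guanylate-binding proteins, 6 of 9 genes rose. Myd88, the adaptor of Toll-like receptors (log2 fold change 1.48, SE 0.12, adjusted p = 1.04e-05), and Cd14, the LPS co-receptor (3.03, SE 0.18, adjusted p = 1.28e-06), rose most. Cd14 was also the gene called up in injured VEGFR3iLECko, from 60.7, 57.9 and 54.8 CPM to 79.6, 111 and 126 CPM. Its 3 injured VEGFR3iLECko libraries were the highest of all, a 1.82-fold increase (log2 fold change 0.86, SE 0.16, adjusted p = 0.0407). In contrast, 6 other genes of the list were lower without overlap, as were 14.3% of all genes, and not called.

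The substrate cytokines and their inhibitors had the largest changes, with 8 of 10 called up. Il1rn, the IL-1 receptor antagonist, went from 0.222, 0.565 and 0.113 CPM in sham to 151, 601 and 514 CPM in injured VEGFR3fl/fl (log2 fold change 10.43, SE 0.78, adjusted p = 5.06e-06). Il1r2, the decoy receptor, had a log2 fold change of 7.31 (SE 0.88, adjusted p = 9.27e-05). Il18r1, a chain of the IL-18 receptor, had 1 count in each sham library and a ratio of summed counts of 75.9 (95% exact counting interval 25.6 to 371). The caspase-1 substrates themselves moved apart. Il1b went from 0.886, 0.734 and 0.957 CPM to 32.6, 108 and 100 CPM (log2 fold change 6.54, SE 0.57, adjusted p = 1.32e-05), whereas Il18 had a log2 fold change of -0.51 (SE 0.20, adjusted p = 0.0478), short of 1.5-fold. In injured VEGFR3iLECko, Il1b was at 135, 166 and 239 CPM, above every injured VEGFR3fl/fl library but not called (log2 fold change 1.16, SE 0.38, adjusted p = 0.122). Il18 was at a log2 fold change of -0.31 there (SE 0.20, adjusted p = 0.35). Il1b and Il18 were likewise named after their values were seen.

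Of 5 further pore and membrane genes tested, 1 rose, Ninj1, which ruptures the plasma membrane downstream of the pore (log2 fold change 2.12, SE 0.13, adjusted p = 1.67e-06). Between the injured groups it was at -0.60 (SE 0.13, adjusted p = 0.0526) with no overlap, beside Gsdmd at -0.59. The pore gene Gsdme was at -0.56 after injury (adjusted p = 0.00544), a ratio of 0.678, which also passes the p threshold but not the fold. Gsdma and Gsdmc had at most 7 counts in any library and were not tested.

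Among other caspases, 4 of 7 rose, led by Casp12, a neighbor of Casp4 (log2 fold change 2.5, SE 0.14, adjusted p = 1.11e-06), and Casp8 (1.48, SE 0.07, adjusted p = 4.93e-07). Of the neutrophil proteases that can cleave gasdermin D, Prtn3 rose (2.05, SE 0.39, adjusted p = 0.00163), though at low counts. It had 7, 5 and 6 counts in sham and 32, 14 and 26 in injured VEGFR3fl/fl, while Elane and Ctsg had 0 to 4 counts in all libraries. Casp14 had 0 to 5 counts. Of the inhibitors 4 of 7 rose, with Nlrc3 (1.82, SE 0.16, adjusted p = 1.37e-05) and Trim30a (1.48, SE 0.19, adjusted p = 0.000147) ahead.

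Of 7 transcription factors known to act on the members, 4 rose. Spi1, which encodes PU.1 (log2 fold change 4.07, SE 0.13, adjusted p = 4.87e-08), and Irf8, which is required for expression of the Naip genes in macrophages (3.42, SE 0.10, adjusted p = 4.09e-08), led. Irf8 was at 6.20, 6.61 and 7.43 CPM in sham, 78.0, 69.8 and 69.0 CPM in injured VEGFR3fl/fl, and 46.8, 40.8 and 40.8 CPM in injured VEGFR3iLECko. It was the single pathway gene called down between the injured groups (log2 fold change -0.76, SE 0.09, adjusted p = 0.0214). Neither Irf8 nor Cd14 was called in edgeR fits of only the 6 libraries compared or with the Y-linked covariate, but these fits called almost no gene at all, 0 of 14677 in the former and 2 of 15010 in the latter.

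**Figure D4:**
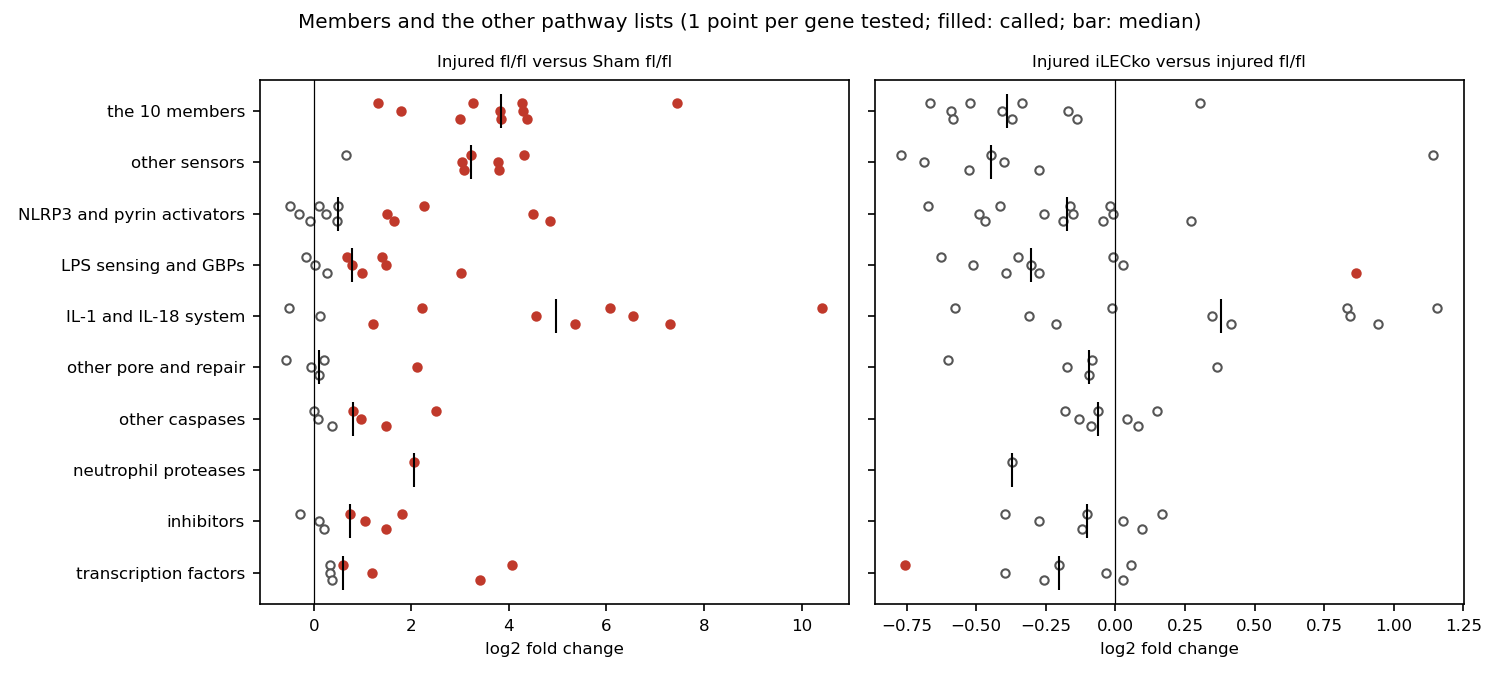
Fitted log2 fold changes (horizontal axis, 1 point per gene tested) of the 10 members and of 9 lists of other pathway genes in injured versus Sham VEGFR3fl/fl (left) and injured VEGFR3iLECko versus injured VEGFR3fl/fl (right), with filled points for genes called by edgeR and black bars for list medians. On the left the members, the other sensors and the IL-1 and IL-18 system lie farthest to the right, and on the right only Cd14 and Irf8 are filled.

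The pattern over the 9 libraries was compared with those of 14212 genes by the root mean square difference of log2 CPM, each gene centered on its own mean. This is a description, since the libraries share groups and depth. Closest to Casp1 were Cd37 (0.141), Myo1f (0.158) and Cd48 (0.189). Closest to Aim2 were Naip6 (0.171), Gna15 (0.245) and Upp1 (0.247), and closest to Nlrp3 were Apln (0.174), Dhrs9 (0.281) and Siglecg (0.289). Among members, Pycard and Gsdmd were the most alike (0.239), followed by Casp1 with Naip2 (0.281) and with Naip5 (0.284), and Mefv and Pycard were the least alike (2.5).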

How the data were processed

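Iris RNA was sequenced as single-end 50-base reads in 9 libraries, 3 per group, each from 3 pooled irises. According to the submitters' processing notes, HISAT2 2.0.4, Bowtie2 2.2.5 and DESeq2 1.4.5 were used with the mm10 build, and the counting program, its strand setting and its annotation are not given in the sources used here. The files as deposited by the authors hold estimated counts per gene, of which 9.83% to 10.3% were not whole, and they were rounded to whole numbers before testing. Totals were 16617187 to 18306359, which sets the precision. A combined table of the same kind of counts with 3 columns of group averages was not used.

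Genes were kept with filterByExpr (15010 of 18349), scaled by TMM and tested in edgeR 4.0.16 (limma 3.58.1, R 4.3.3) with the quasi-likelihood test on all 9 libraries, group as the only term, and p-values were adjusted by Benjamini-Hochberg over every gene that passed the filter. Genes were called at an adjusted p under 0.05 and more than 1.5-fold. Scripts were tested on simulated data. The study's methods describe each library as a pool of 3 mice and mention 3 sequencing experiments, without saying which libraries each held, so p-values measure the spread between pools and no batch term was fitted. The genotype tags of injured VEGFR3iLECko replicates 2 and 3 name another VEGFR number, and titles were used to group them. Approximate TPM used the longest coding transcript, matched by gene identifier or else by symbol, and failing both the longest transcript of any kind. A length was found for 96.9% of genes.

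All 10 members were named, and of each other list the 2 most changed genes called in each direction after injury, every gene called between the injured groups and every gene with at most 3 counts in each library of a group. For Nlrp3, Casp1 and Aim2 the 3 genes of most similar pattern with a mean of at least 1 CPM were named. Members and lists were chosen with earlier results of these data known. Alternatives were RLE, upper quartile or library size scaling, no filter or an approximate TPM filter of 2, DESeq2 1.42.0, the 6 libraries compared alone, the replicate number as a block, a Y-linked covariate, no fold threshold, other marker denominators, and each library left out. Promoter windows and coordinates are from RefSeq, GRCm38.p6.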

Additional observations from a re-analysis of the deposited data

How the results depend on the processing

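All 10 members stayed called up in both injured groups against sham under every alternative in which they were tested, except Pycard in injured VEGFR3iLECko with the Y-linked covariate (log2 fold change 0.67, adjusted p = 0.0726), and Nlrc4 gave no value under the approximate TPM filter. Scaling to library size alone moved the all-gene median after injury to -0.16 on the log2 scale. In injured VEGFR3iLECko against injured VEGFR3fl/fl, 2 members (Casp1 and Gsdmd) were called down by DESeq2 on 9 libraries, and 2 on the 6 libraries compared, a run chosen after seeing the data. Among all genes, DESeq2 on 9 libraries called 349 up and 280 down in this comparison, against 86 and 70 in edgeR. On the 6 libraries compared it called 263 up and 213 down, against 0 and 0 in edgeR.

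Among other pathway genes, calls down after injury went from 0 to 3 with library size alone and 4 without the fold threshold, and from 0 to 1 with a library left out. For the injured groups, the 1 up and 1 down became 2 and 5 in DESeq2, on 9 or 6 libraries, and 0 and 0 both in edgeR on 6 libraries and with the Y-linked covariate, fits that called 0 of 14677 and 2 of 15010 genes in all. Leaving out a library gave 0 to 1 up and 0 to 3 down. Calls down in injured VEGFR3iLECko against sham were 0 with the covariate and 4 without the fold threshold, against 2. Signs between the injured groups turned for Nlrp3 (-0.25 with the covariate, and -0.014 to 0.66 with a library left out, lowest without injured VEGFR3fl/fl replicate 1), Mefv (-0.41 to 0.14, above 0 without injured VEGFR3fl/fl replicate 2 or injured VEGFR3iLECko replicate 1) and Casp4 (-0.52 to 0.045, above 0 without injured VEGFR3iLECko replicate 1). The cause was not tested.

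Members that did not overlap per macrophage marker numbered 8 after injury and 5 per Ptprc, again without a share over all genes. For the 2 injured groups they were 1, and 4 per Ptprc, or 1 to 5 with a library left out (2 without injured VEGFR3fl/fl replicate 3, 5 without injured VEGFR3iLECko replicate 1). In injured VEGFR3iLECko against sham they were 5, and 9 without Lyz2 and C1q. With the replicate block, 0 members and 0 other pathway genes were called up between the injured groups, and 11 genes up and 13 down in all. Same-numbered libraries correlated at -0.387 to 0.131, so the numbers were not taken as pairs. In all, 587 other values kept direction and call.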

Other observations

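Injured VEGFR3fl/fl replicate 1 was lowest of its group for some members and pathway genes and highest for others, all named here after their values were seen. It had the lowest Nlrp3 (5.46 CPM against 11.6 and 15.8), Mefv (8.37 CPM against 19.3 and 15.3) and Il1b (32.6 CPM against 108 and 100) of the 3 libraries. Il1rn was at 151 CPM against 601 and 514, and Il1r2 at 7.95 CPM against 44.8 and 48.5. In the same library the summed neutrophil markers were lowest (91.94 CPM against 223.7 and 226) and the summed macrophage markers highest (21180 CPM against 12740 and 15730), as were Casp1 (25.8 CPM), Casp4 (24.4 CPM), Pycard (25.4 CPM) and Gsdmd (53.4 CPM). These ranks did not follow the roles of the genes, since the sensors Aim2, Naip2 and Naip5 were lowest in replicate 2 (17.4, 23.9 and 20.3 CPM) and the cytokine Il18 was highest in replicate 1 (27.6 CPM). No test was made with 1 library.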
